A study of Homo sapiens with 12 samples.

Results

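Keratins KRT7, KRT8, KRT18 and KRT19, which mark luminal epithelium, and KRT5, KRT14, KRT15 and KRT17, which mark basal epithelium, were examined for the chromatin regions listed after 3 drug treatments of a prostate cancer cell line. These 8 genes are 8 of 20037 protein-coding genes and 8 of 55 keratin genes in the RefSeq annotation. Each gene was given a locus, its annotated body plus 10 kb on either side, and a region belonged to the locus if it overlapped it by at least 1 bp. The 8 loci held 21 of the 49496 regions in the 3 deposited lists.

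The cells were 22Rv1, an established human prostate cancer line that expresses the androgen receptor. Nucleosome-free ATAC-seq, which reads out DNA that a transposase can reach, was made in 3 samples each of cells treated for 6 h with 1 µM enzalutamide, with 100 nM OSU-ERb-12, with OSU-ERb-12 plus enzalutamide (no doses in the labels of these samples) and with vehicle. Enzalutamide blocks the androgen receptor. Oestrogen receptor beta is the receptor that OSU-ERb-12 binds. The genotype of all samples is labelled WT, and all come from this single line. The files hold 1 list of regions per treatment on the hg38 build, with 25317 regions after enzalutamide, 17931 after OSU-ERb-12 and 6248 after both agents, called the combination here. No value per library or per region is given, so sequencing depth is unknown, no result has a replicate error and no difference could be tested over samples. The lists were taken to come from comparisons with the same vehicle group. Whether a listed region opened or closed is stated in none of the sources used, so every result concerns where listed regions lie. All 3 lists have the tag neg in their names, left undefined, so each may hold a single direction of change, and a locus without a listed region may hold changes of the other kind. The lists hold no expression, and the luminal or basal state of the cells could not be checked against them.

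Keratins form the intermediate filaments of epithelial cells. Each filament pairs an acidic type I keratin, encoded on chromosome 17 except for KRT18, with a basic type II keratin, encoded on chromosome 12. In the prostate, luminal cells carry the pair KRT8 and KRT18, and basal cells carry KRT5 with KRT14. Adenocarcinoma of the prostate usually keeps the luminal pair and lacks the basal one.

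Upstream sequence is shown for the gene with the most regions, luminal KRT8, and for a basal gene with none, KRT5, so that each can be read against the distance to the nearest region. Both are the 250 bases before a RefSeq transcript start on GRCh38.p14, minus strand, written 5′ to 3′. Capitals mark GGTCA or its reverse complement TGACC, a single arm of the oestrogen receptor palindrome. KRT8 is chr12:52926470-52926719 and KRT5 is chr12:52520395-52520644.
KRT8: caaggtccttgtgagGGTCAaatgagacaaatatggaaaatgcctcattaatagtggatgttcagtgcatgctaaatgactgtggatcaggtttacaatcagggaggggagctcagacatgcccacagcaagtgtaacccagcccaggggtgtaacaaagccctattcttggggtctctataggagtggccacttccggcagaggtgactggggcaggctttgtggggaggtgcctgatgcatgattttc
KRT5: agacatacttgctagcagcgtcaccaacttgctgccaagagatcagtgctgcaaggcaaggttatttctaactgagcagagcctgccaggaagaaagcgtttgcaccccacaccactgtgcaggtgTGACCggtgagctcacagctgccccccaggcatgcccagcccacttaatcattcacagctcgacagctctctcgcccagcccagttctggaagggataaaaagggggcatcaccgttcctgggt
The upstream sequences of KRT7, KRT18, KRT19, KRT14, KRT15 and KRT17 were not used here.

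Each of the 2 sequences held 1 GGTCA match, at bases -235 to -231 of KRT8 and, on the opposite strand, at -124 to -120 of KRT5, counted from the transcript start. Such a match occurred in 32.6% of 35116 RefSeq upstream sequences of the same length, so its presence sets neither gene apart. Neither sequence held TATAAA, the letters of the core promoter box of many keratin genes, which 10.7% of the upstream sequences held. GGGCGG (SP and KLF factors, 42.6%), TGANTCA (AP-1, 6.57%), TGTTTAC (forkhead factors, 2.98%), AACNGGTT (grainyhead-like factors, 1.49%) and AGAACA (an arm of the androgen receptor palindrome, 12.4%) were not matched in them either. Nor were the full palindromes, in which AGAACA or GGTCA and its reverse complement are 3 bases apart (0.00285% for the androgen receptor and 0.0399% for the oestrogen receptor). Both strands were searched for the letters as given, so a variant such as ATAAAAA near the end of the KRT5 sequence was not counted. The letters describe these windows only. No listed region overlapped either sequence. The nearest enzalutamide region lay 10019 bases from the KRT8 sequence and 124294 bases from the KRT5 sequence. The nearest OSU-ERb-12 region lay 12919 bases from the KRT8 sequence and 19344 from the KRT5 sequence. A combination region lay no closer than 52169 and 44156 bases, in the same order. This KRT8 start lies inside the annotated gene, and other starts of KRT8 were not analysed here. The KRT8 distances hold for this start alone, since enzalutamide and OSU-ERb-12 regions overlap the annotated gene elsewhere. They do not show whether a region lies at another KRT8 start.

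Listed regions lay at the luminal keratin genes far more than at the basal ones. The luminal loci held 20 of the 21 regions and the basal loci 1. All 4 luminal genes and none of the 4 basal genes had an enzalutamide region, in a list that reached 58.3% of all protein-coding genes. An OSU-ERb-12 region lay at 3 luminal genes and 1 basal gene, with 39.1% of all genes reached. A combination region lay at 1 luminal gene and no basal gene, with 21.7% of all genes reached. Of all 20037 genes 29.3% had no region of any list, and of the members 3 had none, all of them basal (KRT5, KRT14 and KRT17).

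**Figure D1:**
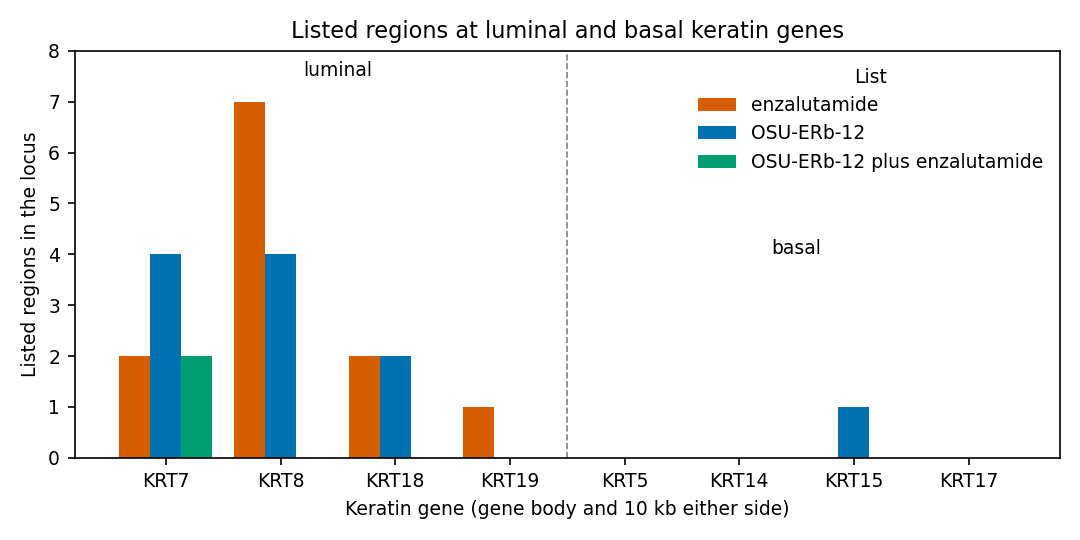
Number of listed regions (vertical axis) in the locus of each keratin gene, luminal genes on the left and basal genes on the right, with a bar for each list. KRT8 has 7 enzalutamide regions, KRT7 has regions of all 3 lists, and among the basal genes only KRT15 has a bar, for 1 OSU-ERb-12 region.

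The luminal loci were dense in listed regions, while the basal loci together were too short for a shortage of regions to be seen. Per 100 kb of joined locus, the luminal genes had 6.99 enzalutamide regions and the basal genes 0, while the loci of all protein-coding genes had 1.18. For OSU-ERb-12 the densities were 5.59 at luminal and 0.993 at basal genes, with 0.76 at all genes. For the combination they were 1.4 at luminal and 0 at basal genes, with 0.286 at all genes. At the density of all coding loci, the 143.0 kb of luminal locus would hold 1.69 regions listed after enzalutamide, 1.09 after OSU-ERb-12 and 0.409 after both agents, where 10, 8 and 2 were listed. The 100.7 kb of basal locus would hold 1.19, 0.766 and 0.288, where 0, 1 and 0 were listed. Even a count of 0 at the basal loci can fall short of that density by no more than 1.19 regions. The basal counts therefore cannot show whether these loci hold fewer regions than average. The luminal counts stand above that density in each list. Regions cluster and the genes are not replicates, so these numbers describe the lists and no test was made.

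**Figure D2:**
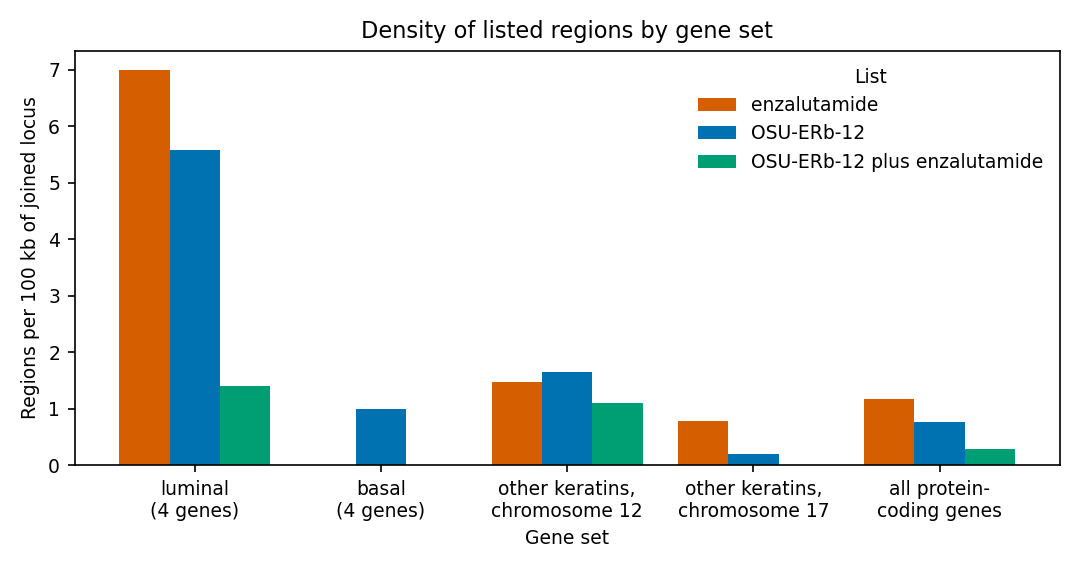
Regions per 100 kb of joined locus (vertical axis) for each gene set, with a bar for each list. The luminal bars reach 6.99, 5.59 and 1.4, and only the OSU-ERb-12 bar is above 0 for the basal genes.

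Class and chromosome are largely tied together. Chromosome 12 carries 3 luminal genes and 1 basal gene, and chromosome 17 carries 1 luminal gene and 3 basal genes. OSU-ERb-12 regions lay at 54.0% of the protein-coding genes of chromosome 12 and 35.2% of those of chromosome 17. Enzalutamide regions lay at 64.7% and 58.5%, and combination regions at 30.0% and 20.3%. Within chromosome 12 the luminal genes had 9 enzalutamide, 8 OSU-ERb-12 and 2 combination regions, and the basal gene KRT5 had none. Within chromosome 17 the luminal gene KRT19 had 1 enzalutamide region and no OSU-ERb-12 region, while the 3 basal genes had 0 and 1. On that chromosome the OSU-ERb-12 difference thus ran the other way, at -1.34 regions per 100 kb (luminal minus basal), and the contrast between the classes came mostly from KRT7 and the KRT8 and KRT18 pair.

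KRT8, the type II keratin of simple and luminal epithelium (gene ID 3856, chromosome 12, 52897191 to 52949860), held 7 enzalutamide regions, 4 OSU-ERb-12 regions and no combination region. Its annotated gene is long, so its locus covers 72.7 kb. Of all protein-coding genes 1.03% had at least 7 enzalutamide regions. Among the 2759 genes whose locus length was within 20% of that of KRT8, 9 did (0.326%), and their median was 1 region. At least 4 OSU-ERb-12 regions lay at 1.49% of the same 2759 genes.

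The enzalutamide and OSU-ERb-12 regions at KRT8 fell into the same pair of stretches without touching each other. In the lower part of the gene, enzalutamide regions lay at 52903851 to 52904200, 52904801 to 52905000, 52908201 to 52908450 and 52916251 to 52916450. The OSU-ERb-12 regions at 52909901 to 52910100 and 52913351 to 52913550 lay between the last 2 of these. The closest pair of the 2 lists in this stretch was 1450 bases apart. A further enzalutamide region, at 52895251 to 52895450, lay 1740 bases outside the gene. No region of any list lay in the next 31450 bases of the gene, up to 52947900, a span that holds the KRT8 start printed above.

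KRT18, the type I partner of KRT8 (gene ID 3875, chromosome 12, 52948855 to 52952906), overlaps the annotated upper end of KRT8 by 1006 bases. Its locus held 2 enzalutamide and 2 OSU-ERb-12 regions, which are also counted for KRT8 and are counted once in the class totals. The enzalutamide region at 52948901 to 52949250 began 46 bases inside the lower end of KRT18, and that at 52950201 to 52950400 lay within the gene. KRT18 is transcribed towards higher coordinates, so its lower end is where it starts. The OSU-ERb-12 regions flanked the gene instead: 52947901 to 52948150 lay 704 bases below it, inside KRT8, and 52953251 to 52953450 lay 344 bases above it. At least 2 enzalutamide regions lay at 29.5% of all protein-coding genes and at least 2 OSU-ERb-12 regions at 15.3%. The nearest combination region, at 52874101 to 52874300, was 22.9 kb from KRT8 and 74.6 kb from KRT18.

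KRT7, a type II keratin of simple and glandular epithelium (gene ID 3855, chromosome 12, 52233243 to 52255853), held 2 enzalutamide, 4 OSU-ERb-12 and 2 combination regions. It was the only member with a region of all 3 lists, as were 11.0% of all protein-coding genes. At least 4 OSU-ERb-12 regions lay at 3.17% of all genes, and at 0.364% of the 4117 genes with a locus length within 20% of that of KRT7. At least 2 combination regions lay at 4.57% of all genes.

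All overlaps between lists at the 8 genes were at KRT7. Across its lower end, where the gene starts, the enzalutamide region at 52233001 to 52233250 overlapped the combination region at 52233051 to 52233250 by 200 bp, and no OSU-ERb-12 region lay there. About 4 kb below the gene, the enzalutamide region at 52228851 to 52229150 overlapped the OSU-ERb-12 region at 52228851 to 52229100 by 250 bp, and no combination region lay there. In the upper part of the gene, the OSU-ERb-12 and combination regions at 52253101 to 52253300 had the same boundaries, and no enzalutamide region lay there. The other OSU-ERb-12 regions, at 52239201 to 52239400 inside the gene and 52262201 to 52262400 above it, were in no other list. Each combination region at KRT7 was thus shared with a different single agent.

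**Figure D3:**
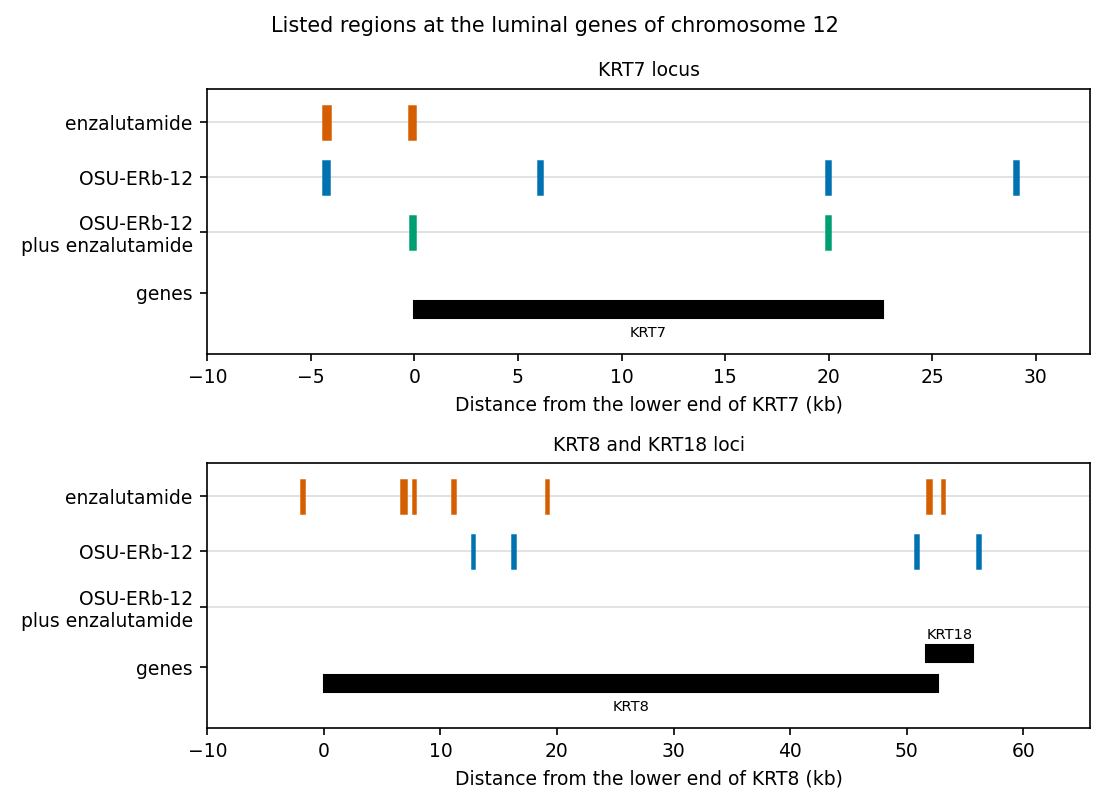
Positions of listed regions at KRT7 (upper panel) and at KRT8 and KRT18 (lower panel), as distance in kb from the lower end of KRT7 or KRT8; coloured bars are regions of each list, with outlines that widen them slightly, and black bars are genes. At KRT7 bars of different lists line up at 3 places, while at KRT8 and KRT18 no bars line up and the combination row is empty.

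In all, 6 of the 21 regions were shared, 2 of 10 for enzalutamide, 2 of 9 for OSU-ERb-12 and 2 of 2 for the combination. Over the whole lists, 6.17% of enzalutamide regions were also in the OSU-ERb-12 list and 4.02% in the combination list, by an overlap of at least 1 bp. Of all OSU-ERb-12 regions 8.72% were also in the enzalutamide list and 4.43% in the combination list. An enzalutamide region overlapped 16.3% of all combination regions, and an OSU-ERb-12 region overlapped 12.7% of them. If the lists come from comparisons with the same vehicle samples, as was assumed, their overlaps are not independent, and the combination share rests on 2 regions.

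KRT19, the smallest keratin and a type I keratin of luminal cells (gene ID 3880, chromosome 17, 41523617 to 41528308), held a single region. This enzalutamide region, at 41536901 to 41537100, lay 8592 bases above the gene. The next one, at 41539151 to 41539500, lay 10842 bases away, just beyond the 10 kb limit. KRT19 was therefore the luminal member with the fewest regions, and no region lay in the gene itself.

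KRT15, a type I keratin of basal cells that lacks an exclusive type II partner (gene ID 3866, chromosome 17, 41513745 to 41518890), was the basal gene with a region. The OSU-ERb-12 region at 41509801 to 41510000 lay 3744 bases below it and also in the locus of KRT13, a keratin of stratified epithelium. The nearest enzalutamide region was 16.5 kb away and the nearest combination region 135 kb away. KRT15 and KRT19 are 4726 bases apart, so the regions at these 2 neighbours, of different classes, came from opposite flanks of the pair.

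KRT5, the type II keratin of basal cells (gene ID 3852, chromosome 12, 52514575 to 52520394), held none. The nearest enzalutamide region was 118 kb away, and 10.2% of all protein-coding genes were at least as far from one. Enzalutamide regions were missing over 250.2 kb around KRT5, a stretch with 9 keratin genes. This stretch runs from a listed region to the next, and how common such stretches are was not determined. An OSU-ERb-12 region at 52500751 to 52501050 lay 13.5 kb below KRT5, outside the locus, and the nearest combination region was 44.4 kb away.

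KRT14, the type I partner of KRT5 (gene ID 3861, chromosome 17, 41582279 to 41586895), and KRT17, a type I keratin of basal cells induced in injured epidermis (gene ID 3872, chromosome 17, 41619442 to 41624575), also held none. Both lie in a stretch of 114.7 kb, 41539501 to 41654200, that held no region of any list and contains KRT9, KRT14, KRT16 and KRT17. As with KRT5, how common such a stretch is was not determined. The nearest enzalutamide region was 42.8 kb from KRT14 and 52.0 kb from KRT17. For OSU-ERb-12 the nearest was 72.3 kb from KRT14 and 87.9 kb from KRT17, and in the combination list 67.3 kb and 29.6 kb. The median distance over all protein-coding genes was 2.69 kb to an enzalutamide region, 23.3 kb in the OSU-ERb-12 list and 85.9 kb in the combination list. All 4 basal genes were thus farther than the median gene from an enzalutamide region, as was luminal KRT19 (8.59 kb). KRT5 and KRT15 were nearer than the median to an OSU-ERb-12 region, and KRT5, KRT14 and KRT17 to a combination region. These medians are over genes of all lengths, and gene length was not matched.

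**Figure D4:**
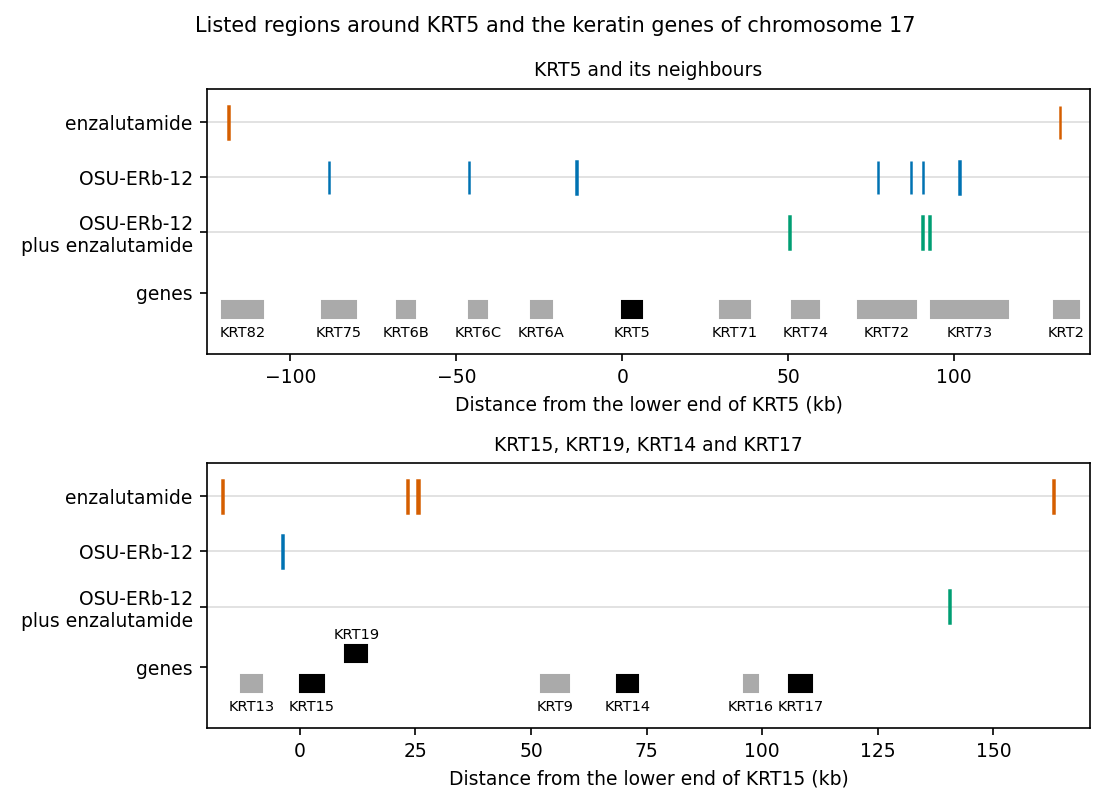
Positions of listed regions around KRT5 (upper panel) and from KRT13 to beyond KRT17 (lower panel), as distance in kb from the lower end of KRT5 or KRT15; coloured bars are regions, drawn wider than to scale, black bars are the genes described here and grey bars other keratin genes. No bar lies over KRT5, and none lies between the enzalutamide regions above KRT19 and the combination region above KRT17.

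**Figure D5:**
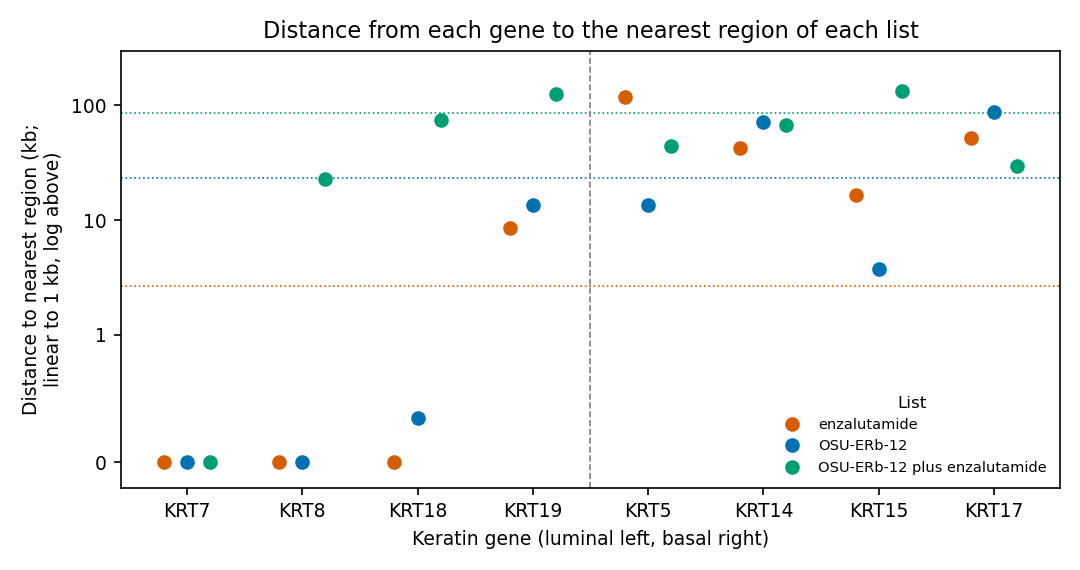
Distance in kb from each gene to the nearest region of each list (vertical axis, linear to 1 kb and logarithmic above), with luminal genes left and basal genes right; dotted lines are the medians over all protein-coding genes, 2.69, 23.3 and 85.9 kb. KRT7, KRT8 and KRT18 overlap an enzalutamide region, and the basal genes lie 16.5 to 118 kb from one.

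The 6 members other than KRT7 and KRT8 are short, between 4052 and 5820 bp. Of the 1012 protein-coding genes in this range 46.3% had a region listed after enzalutamide, 26.9% after OSU-ERb-12 and 15.8% after both agents, and 41.0% had none. Of the 6 short members 2 had an enzalutamide region (KRT18 and KRT19), 2 an OSU-ERb-12 region (KRT18 and KRT15) and none a combination region. For OSU-ERb-12 the 2 of 6 are above the share of genes of the same length, and for the other lists the counts are below it, each by less than 1 gene.

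Regions at the keratin genes were 200 to 350 bp wide, and the shortest width in the lists, 200 bp, was that of 5 of 10 regions after enzalutamide (45.7% of the whole list), 7 of 9 after OSU-ERb-12 (66.1%) and 2 of 2 after both agents (68.0%). The widest, 350 bp each, were the enzalutamide regions at the lower end of KRT18 and at 52903851 to 52904200 in KRT8. For enzalutamide 3 of 10 lay within 1 kb of an end of a protein-coding gene, against 22.4% of the whole list. It was 2 of 9 against 8.09% with OSU-ERb-12, and 1 of 2 against 15.6% in the combination list. All 6 were at ends of KRT7, KRT8 or KRT18. Member regions lie within 10 kb of a protein-coding gene by rule, while the whole lists also hold regions farther away. A higher share than in the whole list is therefore built in. Within 10 kb of any protein-coding gene, 5672 of 17536 enzalutamide regions lay at such ends. For OSU-ERb-12 it was 1451 of 11304 and for the combination 973 of 4250. Starts inside an annotated gene were not counted as ends. Some regions also lie in neighbouring pseudogenes: the regions at and below the KRT7 start lie in TMT1AP1, and those at 52253101 to 52253300 in KRT87P. No source used here states how reads with several matches were handled. The annotation lists 52 pseudogenes of KRT8, 68 of KRT18, 5 of KRT19 and 8 of KRT17, and their part in these results was not tested.

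The loci of the other 47 keratin genes were less dense in listed regions than the luminal loci. Of these genes 14 held a region listed after enzalutamide, 10 after OSU-ERb-12 and 7 after both agents, and the median was 0 in each list. On chromosome 12 their loci held 1.48, 1.66 and 1.11 regions per 100 kb, with the lists in the same order, and on chromosome 17 they held 0.793, 0.198 and 0. The most regions lay at the hair follicle keratin genes KRT72 and KRT73, with 0 enzalutamide, 3 OSU-ERb-12 and 2 combination regions each, followed by the hair keratin gene KRT83 with 2, 0 and 1. The loci of KRT72 and KRT73 overlap, and most of their regions are counted for both genes. By the summed absolute difference in counts over the 3 lists, KRT72 and KRT73 were nearest to KRT7 (a difference of 3 each), then KRT83 (5). KRT13 was nearest to KRT18 (2) and to KRT8 (9), so no other keratin gene came close to the counts of KRT8.

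Genes whose proteins anchor keratin filaments, form other intermediate filaments or regulate keratin genes were counted in the same way. Of 32 such genes, 25 held a region listed after enzalutamide (78.1%), 14 after OSU-ERb-12 (43.8%) and 9 after both agents (28.1%), against 58.3%, 39.1% and 21.7% of all protein-coding genes. The median number of regions was 1, 0 and 0, as over all protein-coding genes. Locus length was not matched in this count. The desmosome genes gave 7, 3 and 2 of 9, and the hemidesmosome and plakin genes 9, 6 and 2 of 10. Other intermediate filament genes gave 4, 1 and 2 of 5, and regulators 5, 4 and 3 of 8. Among the genes with many regions was DST, a plakin gene with 7, 3 and 0. The desmosomal plakophilin gene PKP1 had 3, 3 and 2, and GRHL2, a grainyhead-like factor gene, had 5, 1 and 2. TP63, whose protein directs the basal cell programme, had 0, 2 and 0, so it too had no enzalutamide region.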

How the data were processed

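Nucleosome-free ATAC-seq fragments of 12 samples in 4 groups of 3 were separated with ATACSeqQC, per the labels' protocols. FastQC, Trimmomatic and hg38 are named in the submitters' processing notes. The aligner, peak caller, threshold, test against vehicle, pooling of replicates and direction are stated in none of the sources used. The deposited lists hold chromosome, start and end, with a score that is always 0 and cannot rank regions. Each list was tied to its treatment through the start of its name, which sample titles share. The OSU-ERb-12 list begins with WT, an abbreviation left undefined by the labels, and all its values rest on that match. Positions are printed 1-based.

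Genes and upstream sequences came from RefSeq GRCh38.p14, the same build. The gene table gives no strand or exons, so exonic and intronic placement was not determined and gene directions are background knowledge. Overlaps, densities over joined loci and distances were computed in Python 3.11.15 with pandas 2.3.3. Counting recovered the planted number of regions at all 200 genes of simulated lists. No test was possible, since each list is a single unreplicated result and depth per sample is unknown. The members, gene lists and settings were chosen with earlier results of these data known. Beyond the 8 members, genes were named by rule: the other keratin genes and partner genes with most regions, those most like a member in counts, and those sharing a region; TP63 was chosen after its values were seen, and a gene that the rule takes is not reported here. Alternatives were other flanks (0, 5 and 50 kb), assignment to the nearest gene, merging within 1 kb, leaving out regions of 200 bp, base pairs covered, other overlap rules and a wider gene-end window.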

Additional observations from a re-analysis of the deposited data

How the results depend on the processing

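Luminal density stayed above or equal to basal density in every list and density setting run, except for OSU-ERb-12 on chromosome 17 alone, where luminal minus basal was -1.34 regions per 100 kb; enzalutamide gave 4.05 and the combination 0 there. This split and leaving out KRT7 or KRT8 were added after seeing the data. Without KRT7 the difference was 2.99 for OSU-ERb-12 and 0 with both agents, and without KRT8 it was 2.19 for the combination. With gene bodies alone, OSU-ERb-12 regions numbered 5 at luminal and 0 at basal genes, 2 members held one, and the combination difference was 2.41. With 50 kb flanks, basal regions numbered 3, 3 and 2 (enzalutamide, then OSU-ERb-12, then both agents), luminal combination regions 4 and members with one 4, with differences of 2.97, 2.19 and 0.413. Without regions of 200 bp, luminal regions numbered 5, 2 and 0, basal OSU-ERb-12 regions 0 and members with a combination region 0, with differences of 3.5, 1.4 and 0. By nearest gene, 1 combination region fell to a basal gene and 3 members held one. Within 5 kb, 12 regions lay at gene ends against 6 within 1 kb. These settings change which regions or genes are counted by construction; other causes were not tested. Counting covered base pairs, the difference was 17.5, 9.9 and 2.8 bp per kb, on another scale. The number shared, 6, did not change with either other overlap rule. Depth is unknown, so the absence of a listed region does not show that accessibility was the same. No paired analysis was possible because the lists hold no value per library.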

Other observations

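The RefSeq table holds 38 upstream windows (250 bases before to 50 after a start) of 34 keratin genes. Of these, 1 overlapped an enzalutamide region, that of the hair keratin gene KRT85 (52367301 to 52367500 on chromosome 12), against 7.88% of all 35116 windows. None overlapped a region of the other lists, against 1.26% of all windows for OSU-ERb-12 and 1.49% with both agents. Of the 8 members only KRT8 and KRT5 had such a window. The regions at the lower ends of KRT7 and KRT18, described above, are therefore outside this count. The KRT8 window is that of the start printed above, so a region at any other KRT8 start would be outside the count too. Of the 24 other keratin genes on chromosome 17, 19 held no region of any list, against 3 of 23 on chromosome 12. The chromosome 12 stretch from KRT80 to KRT18 held 20 enzalutamide, 23 OSU-ERb-12 and 10 combination regions in 783.9 kb. No combination region lay within 1114 kb of chromosome 17 that contains KRT14, KRT15, KRT17 and KRT19. How common a stretch of that length is in this list was not determined. Pseudogenes of KRT8 overlapped an enzalutamide region in 3 cases and those of KRT18 in 5, with no OSU-ERb-12 or combination region, while 1 KRT19 pseudogene overlapped an OSU-ERb-12 region.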
